A study of Mus musculus with 3 samples.

Results

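The major histocompatibility complex (MHC) genes and the genes that load and regulate them were examined in adult mouse hearts on 3 two-colour Agilent whole mouse genome arrays. The members were all probes of genes, control spots left out, whose name in the array annotation begins with H2- or is *B2m*, *Tap1*, *Tap2*, *Tapbp*, *Cd74* or *Ciita*. They numbered 70 of 41174 probes and stood for 42 gene names, of which 39 lie on chromosome 17 in the RefSeq annotation. By the labels and methods, RNA pooled from 2 *Lrrc10-/-* hearts was hybridized in Cy5 and RNA pooled from 2 WT (Lrrc10+/+) hearts in Cy3 on each array, in both cases from mice whose strain the labels spell C57/BL6, at 2 months of age, with no dye swap. *Lrrc10* encodes a heart-restricted leucine-rich repeat protein, and its deletion is present in every cell of the mouse. The WT hearts came from littermates, and the labels call their RNA a reference pool, so 1 WT pool may have served all arrays. Whether the arrays shared a pool was not tested. The SD between arrays was larger in Cy3 than in Cy5 for 77.7% of the tested probes. The methods describe the arrays as independent biological replicates. If 1 pool was used, no error given here holds the spread of WT hearts. Because whole hearts were used, fewer cells of a type and less RNA per cell cannot be told apart.

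The deleted gene served as a check of the labels. The *Lrrc10* probe gave processed signals of 14283, 20828 and 17703 on replicates 1, 2 and 3 in Cy5, the channel labelled *Lrrc10-/-*, and of 476, 443 and 352 in Cy3, the channel labelled WT. The probe was thus brighter in the channel labelled knockout on every array, which goes against the labels. The genotype of each channel is therefore known only as labelled, and every direction below is given by channel. Ratios are log2 of Cy5 over Cy3 throughout, so that a value below 0 means a brighter Cy3. Over 29576 tested probes, Pearson's r between the ratios of replicate 1 and replicate 2 was 0.096. It was −0.037 between replicate 1 and replicate 3 and −0.18 between replicate 2 and replicate 3. All arrays shared a slide and a scan.

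MHC class I molecules are made of a polymorphic heavy chain and beta 2-microglobulin and display peptides from the cytosol to CD8 T cells and NK cells on nearly every nucleated cell. The peptides are cut by the proteasome, carried into the endoplasmic reticulum by the transporter TAP and fitted by tapasin. Class II molecules are pairs of alpha and beta chains that display peptides from endosomes to CD4 T cells, and in the heart they are carried mainly by macrophages and dendritic cells. The invariant chain (*Cd74*) escorts class II chains, H2-DM exchanges the peptide and H2-O holds H2-DM in check. *Ciita* encodes the coactivator that class II transcription depends on, and interferon gamma induces both classes.

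The class I heavy chains arose by duplication and remain close in sequence, so a probe of one can bind transcripts of another. Among the 54 tested members, 4 pairs of probes that carry the names of different genes shared an identical run of at least 20 bases. The sequences of 3 of these pairs, which have an open reading frame over their whole length, show how far a signal can be assigned to a single gene. Each probe is 60 bases long and is written 5′ to 3′ in the sense of the transcript, with the shared run in capitals.
H2-Q2 probe: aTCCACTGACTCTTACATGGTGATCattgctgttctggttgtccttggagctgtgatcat
H2-D1 probe: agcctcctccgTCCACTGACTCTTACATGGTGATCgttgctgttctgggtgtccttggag
H2-Q5 probe: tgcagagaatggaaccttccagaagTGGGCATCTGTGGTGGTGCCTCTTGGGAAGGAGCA
H2-Q10 probe, brightest: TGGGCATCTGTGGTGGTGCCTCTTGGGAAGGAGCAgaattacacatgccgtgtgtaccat
H2-Q10 probe, second: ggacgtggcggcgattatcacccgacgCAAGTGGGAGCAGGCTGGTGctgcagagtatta
H2-K1 probe, dimmest: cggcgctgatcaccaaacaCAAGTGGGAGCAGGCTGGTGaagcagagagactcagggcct

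The run was 24 bases for *H2-Q2* and *H2-D1*, 35 bases for *H2-Q5* and *H2-Q10*, and 20 bases for the second *H2-Q10* probe and the dimmest *H2-K1* probe. Counts of aligned bases include the run. The first pair matched almost throughout, with 47 of 50 aligned bases identical. The *H2-K1* probe and the second *H2-Q10* probe were further apart, with 40 of 52 aligned bases identical. In the fourth pair, *H2-Q7* and *H2-T23*, the run was 28 bases and 50 of 59 aligned bases were identical. On every array the ratios of the 2 probes of a pair lay at most 0.15 apart (0.058 for *H2-Q5* and *H2-Q10*, 0.097 for *H2-Q7* and *H2-T23*, 0.15 for each of the others). The names *H2-Q2*, *H2-Q5*, *H2-Q7*, *H2-Q10* and *H2-T23*, and *H2-D1* and *H2-K1* for the probes shown, therefore stand for probes, and the transcript behind each signal is uncertain.

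Of the 70 member probes, 54 probes of 30 genes passed the signal minimum of 20 (the geometric mean of processed signals over both channels and all arrays). Well above background in both channels on all arrays were 50 probes of 28 genes, and 16 probes were well above background in neither channel of any array. No member probe was saturated. Both classical class I genes on the array, *H2-K1* and *H2-D1*, had tested probes, and no probe was named *H2-L*. The 12 genes without a tested probe were 9 of 21 class Ib genes (*H2-M1*, *H2-M9*, 5 of the *H2-M10* group, *H2-Q1* and *H2-T3*), the class II chain *H2-Ea* and the accessory genes *H2-DMb2* and *H2-Ob*. Signals of *H2-Ea* were 8.4, 8.78 and 5.93 in Cy3 and 5.53, 6.21 and 4.2 in Cy5, not well above background on any array. Mice of the b haplotype, which C57BL/6 carries, have a deletion in the promoter of this gene and make no E alpha chain. For *H2-DMb2* the signals were 6.34, 25.6 and 4.42 in Cy3 and 7.58, 9.96 and 6 in Cy5, and for the brighter *H2-Ob* probe they were 8.56, 8.77 and 13.9 in Cy3 and 8.9, 8.86 and 6.25 in Cy5, both not well above background.

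No member passed the test between the channels. In limma's moderated test of the mean ratio against 0, with Benjamini-Hochberg adjustment over all tested probes, 0 of 54 member probes passed an adjusted p of 0.05, where 0.00676% of all tested probes did. The lowest unadjusted p of a member was 0.0574, for *H2-DMb1*. At an unadjusted p under 0.05, 0 member probes were brighter in Cy5 and 0 in Cy3, against 1.54% and 1.52% of all tested probes. The selection described in the methods asks for a 1.2-fold ratio in one direction on all 3 arrays and a p under 0.05 obtained by clustering software, with no test named beside it. With the p of each array it took 0 members in either direction, against 0.406% of all probes in Cy5 and 0.511% in Cy3. When the methods' t-test, their test wherever no other is stated, supplied an unadjusted p across arrays, it took 0 members in Cy5 and 1, *H2-DMb1*, in Cy3, against 0.967% and 1.13%. Processed signals of the channels overlapped for each of the 54 probes, where 1.23% of all probes had every Cy5 signal above every Cy3 signal and 1.64% the reverse. On simulated arrays made from these probes the test called 0 of 50 probes changed by a log2 ratio of 1 and 18 of 50 changed by 2. The means of the tested member probes lay between −0.60 and 0.41.

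The direction in which members passed a 1.2-fold ratio differed between arrays. On replicate 2, 39 of the 54 member probes (72.2%) were at least 1.2-fold brighter in Cy3 and 6 (11.1%) in Cy5, against 30.3% and 31.0% of all tested probes. On replicate 3, 7 member probes (13.0%) were at least 1.2-fold brighter in Cy3 and 25 (46.3%) in Cy5, against 25.7% and 26.3% of all probes. On replicate 1, 17 member probes (31.5%) were at least 1.2-fold brighter in Cy3 and 6 (11.1%) in Cy5, against 25.8% of all probes in either direction. Of the 17 probes brighter in Cy3, 11 belonged to the 14 class II probes while 1 belonged to the 29 class I heavy chain probes. Per array, the median ratio of all member probes was −0.077, −0.51 and 0.22, where that of all tested probes was 0.0046, 0.0061 and −0.0072. Probes of one array share its hybridization and are not independent.

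**Figure D1:**
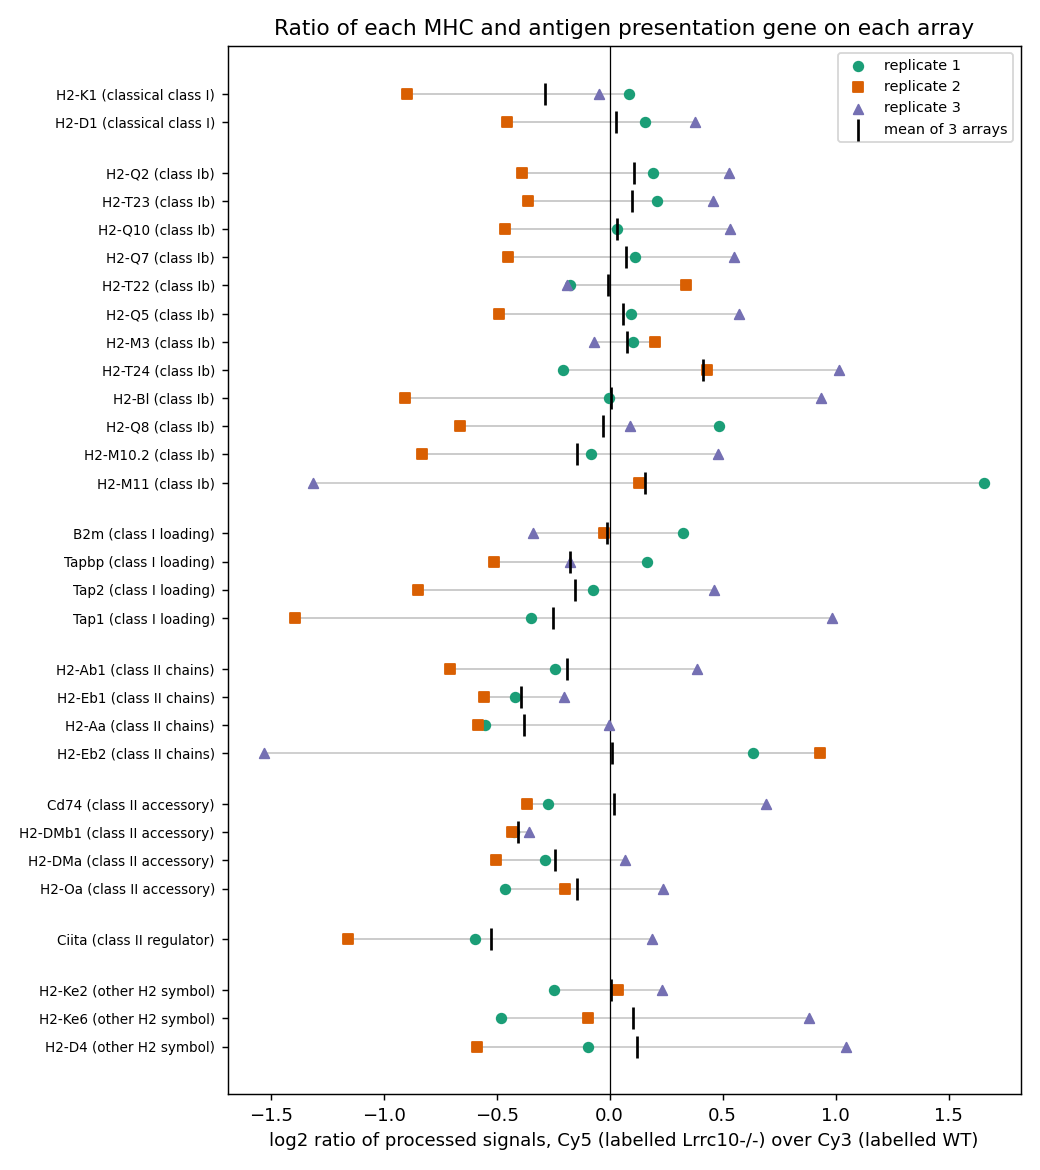
Log2 ratio of Cy5 over Cy3 (x axis) of the brightest tested probe of 30 MHC and antigen presentation genes, grouped by role, with 1 symbol per array and a vertical bar at the mean of 3 arrays. Most class I genes lie below 0 on replicate 2 and above 0 on replicate 3, and *H2-DMb1* has its 3 arrays closest together, between −0.43 and −0.36.

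The classical class I heavy chains present peptides to CD8 T cells. *H2-K1* gave processed signals of 28163, 60001 and 25374 in Cy3 and 29872, 32254 and 24532 in Cy5. Its Cy5 signals were close together, and its Cy3 signal on replicate 2 was far above that on the other arrays. The log2 ratios of 0.085, −0.90 and −0.049 averaged −0.29 ± 0.53 (SD, n = 3 arrays), and limma gave an adjusted p of 1.00. *H2-D1*, read by the probe close to that of *H2-Q2*, gave 16829, 28909 and 12038 in Cy3 and 18779, 21107 and 15639 in Cy5. Its highest Cy3 signal also came from replicate 2, and its ratios of 0.16, −0.45 and 0.38 averaged 0.027 ± 0.43 (SD, n = 3). Neither gene kept a direction over the arrays, and the channels overlapped for both.

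The class Ib genes encode less polymorphic relatives of the classical chains, among them *H2-T23* (Qa-1, a ligand of NK receptors) and *H2-M3*, which presents formylated peptides of bacteria and mitochondria. Of 21 class Ib genes, 12 had a tested probe and 11 a probe well above background everywhere. *H2-T23* gave ratios of 0.21, −0.36 and 0.46. Similar ratios came from the probes of *H2-Q2* (0.19, −0.39 and 0.53), *H2-Q5* (0.093, −0.49 and 0.57), *H2-Q7* (0.11, −0.45 and 0.55) and *H2-Q10* (0.035, −0.46 and 0.53). These 5 probes, each the brightest of its gene, stood below 0 on replicate 2 and above 0 on the others. Further probes stayed below 0 on replicate 2 but not always above it elsewhere, as *H2-Q2* at −0.058, −0.55 and 0.20 and −0.069, −0.34 and 0.56 and 3 dimmer *H2-Q10* probes at −0.42, −0.50 and 0.015, at 0.13, −0.53 and −0.18 and at −0.15, −0.71 and 0.39. *H2-Bl* had the same order with a wider spread, at −0.0046, −0.91 and 0.93.

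*H2-T22*, whose product is bound by gamma delta T cells, differed. Its brightest probe gave 9276, 9962 and 7101 in Cy3 and 8224, 12589 and 6239 in Cy5. The ratios of −0.17, 0.34 and −0.19 put replicate 2 highest, where most class I genes had it lowest. Both further *H2-T22* probes also stood highest on replicate 2, at −0.25, 0.30 and −0.23 and at −0.23, 0.19 and −0.19, and no *H2-T22* probe shared more than 12 bases in a row with a probe of another member gene. With another background correction (normexp) and loess the brightest probe stood at 0.20, 0.61 and 0.21, so replicate 2 stayed highest while the sign on the other arrays turned. The brightest *H2-M3* probe also stood highest on replicate 2, with ratios of 0.10, 0.20 and −0.070 and a mean of 0.078 ± 0.14 (SD, n = 3). The second *H2-M3* probe, dimmer but well above background, stood lowest on replicate 2 at 0.40, −0.45 and 0.47, so the place of replicate 2 depends on the probe. *H2-T24* had the highest mean among the tested members, 0.41 ± 0.61 (SD, n = 3), from ratios of −0.21, 0.43 and 1.02, and its second probe averaged −0.15 ± 0.30 (SD, n = 3). *H2-M11*, well above background on 1 array in Cy3 and on 2 in Cy5, ran from −1.31 on replicate 3 to 1.66 on replicate 1. *H2-Q8* and *H2-M10.2* gave 0.49, −0.66 and 0.089 and −0.081, −0.83 and 0.48, both lowest on replicate 2.

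The genes of class I loading were *B2m*, which encodes the light chain, *Tap1*, *Tap2* and *Tapbp*. The brightest *B2m* probe gave 11698, 21296 and 23070.3 in Cy3 and 14633, 20940.3 and 18267 in Cy5. It did not follow the heavy chains, since its Cy3 signal on replicate 3 was as high as on replicate 2 and its ratios were 0.32, −0.024 and −0.34. *Tap1*, one subunit of the peptide transporter, gave 183, 406 and 72.8 in Cy3 and 144, 155 and 144 in Cy5. Its Cy5 signals lay within a narrow range and its Cy3 signals spread widely, with ratios of −0.35, −1.39 and 0.98 and a mean of −0.25 ± 1.19 (SD, n = 3). *Tap2*, the other subunit, gave 638, 1384 and 315 in Cy3 and 607, 769 and 433 in Cy5 and ratios of −0.073, −0.85 and 0.46, in the same order as *Tap1*. *Tapbp* (tapasin) gave 5683, 11124 and 7103 in Cy3 and 6364, 7812 and 6287 in Cy5. Its ratios were 0.16, −0.51 and −0.18, with a mean of −0.17 ± 0.34 (SD, n = 3). Over the 4 loading genes the median ratio was 0.045, −0.68 and 0.14, and all 4 were below 0 on replicate 2 by their brightest probe. For *B2m* this rests on −0.024, and its dimmer probes, well above background, stood above 0 there, at 0.088 and 0.95.

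*H2-Eb2* aside, class II chains were dimmer in Cy5 than in Cy3 on replicates 1 and 2. *H2-Aa*, the A alpha chain, gave 1204, 1971 and 1162 in Cy3 and 823, 1317 and 1159 in Cy5. The Cy3 signals were above the Cy5 signals of the same array on replicates 1 and 2 and about equal to them on replicate 3, and the ratios of −0.55, −0.58 and −0.0048 averaged −0.38 ± 0.32 (SD, n = 3 arrays). *H2-Ab1*, the A beta chain, gave 5535, 12004 and 6124 in Cy3 and 4680.2, 7350.0 and 8014 in Cy5. It shared the direction of *H2-Aa* on replicates 1 and 2 but stood above 0 on replicate 3, with ratios of −0.24, −0.71 and 0.39. *H2-Eb1*, the E beta chain, gave 2411, 3577 and 2851 in Cy3 and 1802, 2432 and 2476 in Cy5. Cy3 was brighter on every array, and the ratios of −0.42, −0.56 and −0.20 averaged −0.39 ± 0.18 (SD, n = 3 arrays). The accession behind this probe is described in the array annotation as an A beta chain of NOD mice, so name and description differ. *H2-Eb2*, well above background on replicate 3 alone, gave 9.72, 8.66 and 232 in Cy3 and 15.1, 16.5 and 80.4 in Cy5. Its ratios of 0.64, 0.93 and −1.53 have no common sign. The signals of replicates 1 and 2 behind the first 2 ratios were not well above background.

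By their brightest probes, all 4 tested accessory genes of class II were below 0 on replicates 1 and 2, and 3 of 4 were above 0 on replicate 3. *Cd74* gave 8284, 11266 and 4714 in Cy3 and 6866, 8752 and 7612 in Cy5. Its ratios of −0.27, −0.36 and 0.69 averaged 0.019 ± 0.58 (SD, n = 3), with replicate 3 opposite to the others. *H2-DMb1*, the beta chain of H2-DM, gave 1610.1, 2297 and 1567 in Cy3 and 1199.9, 1704 and 1223 in Cy5. Cy3 was brighter on every array by a similar amount, with ratios of −0.42, −0.43 and −0.36 and a mean of −0.40 ± 0.040 (SD, n = 3 arrays), the smallest spread among the tested members, at an adjusted p of 1.00 from limma. The second *H2-DMb1* probe, dimmer, gave ratios of −0.87, −0.75 and −0.084. *H2-DMa*, its partner chain, gave 181, 334 and 231 in Cy3 and 148, 236 and 243 in Cy5 and ratios of −0.29, −0.50 and 0.068. *H2-Oa*, the alpha chain of H2-O, gave 112, 89.5 and 57.6 in Cy3 and 81.3, 78.1 and 67.8 in Cy5. The ratios of this probe, −0.46, −0.20 and 0.24, were below 0 on replicates 1 and 2 only. The dimmer *H2-Oa* probe, not well above background throughout, gave 0.34, −0.59 and −0.59, so the signs on replicates 1 and 3 depend on the probe. *Ciita* gave 76.2, 214 and 82 in Cy3 and 50.4, 95.7 and 93.4 in Cy5. Its ratios of −0.60, −1.16 and 0.19 averaged −0.52 ± 0.68 (SD, n = 3), the lowest mean among the genes read by their brightest probe.

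Names beginning with H2- also cover genes of other kinds. *H2-Ke2* (*Pfdn6* in RefSeq, a subunit of the prefoldin chaperone) gave ratios of −0.25, 0.038 and 0.23. *H2-Ke6*, which encodes a hydroxysteroid dehydrogenase, gave −0.48, −0.10 and 0.88, and *H2-D4*, left without a class here, gave −0.095, −0.59 and 1.04. All 3 were highest on replicate 3 and none kept a sign over the arrays.

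By sign alone, 4 member probes were brighter in Cy3 on all 3 arrays (7.41% of 54), against 11.0% of all tested probes, and 0 were brighter in Cy5 on all arrays, against 10.0%. These shares do not exceed the background. The 4 probes stood for *H2-Aa*, *H2-DMb1* and *H2-Eb1*, all of class II. *H2-Aa* counts through a ratio of −0.0048 on replicate 3, and its second probe, of similar brightness, was mixed at −0.49, −0.70 and 0.10. With normexp and loess 8 member probes were brighter in Cy3 on all arrays and 1 in Cy5, against 15.3% and 16.7% of all tested probes, with *Tapbp* joining *H2-Aa*, *H2-DMb1* and *H2-Eb1* in Cy3. When normexp was followed by median centring, which left all tested probes at a median of 0.11, 0.10 and 0.20, the split turned. Brighter in Cy5 on all arrays were then 11 member probes and in Cy3 5, against 41.2% and 11.6% of all tested probes. By their brightest probes, *B2m*, *H2-Ke2*, *H2-M3*, *H2-Q2*, *H2-T22*, *H2-T23* and *H2-T24* were brighter in Cy5 and *H2-Eb2* in Cy3. None of the 3 class II genes kept its sign there, since on replicate 3 *H2-Aa* stood at 0.38, *H2-DMb1* at 0.036 and *H2-Eb1* at 0.087. Relative to these medians, *H2-DMb1* stood at −0.29, −0.25 and −0.17 and *H2-Eb1* at −0.51, −0.40 and −0.11, whereas *H2-Aa* stood at −0.44, −0.32 and 0.18.

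Set against each other by the brightest probe of each gene, class II lay below class I on all 3 arrays, although on replicate 2 the gap was small. The median ratio of the 14 class I heavy chain genes was 0.097, −0.45 and 0.47 on replicates 1, 2 and 3. That of the 8 class II genes (chains and accessory genes) was −0.35, −0.47 and 0.032. Class II minus class I was thus −0.45, −0.016 and −0.44, with a mean of −0.30 ± 0.25 (SD, n = 3 arrays). On replicate 1, 10 of 14 class I genes were above 0 and 7 of 8 class II genes below it. On replicate 2, 10 of 14 and 7 of 8 were below 0. On replicate 3, 10 of 14 class I genes and 4 of 8 class II genes were above 0. Over the means of 3 arrays, class I heavy chains had a median of 0.047 and class II genes one of −0.21, with an interquartile range of −0.0037 to 0.095 and of −0.38 to −0.10. Where 1 gene was kept for each set of probes with a shared run, class I came to 11 genes and the mean difference to −0.27. The difference concerns the members as a list, and no test was made of it.

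**Figure D2:**
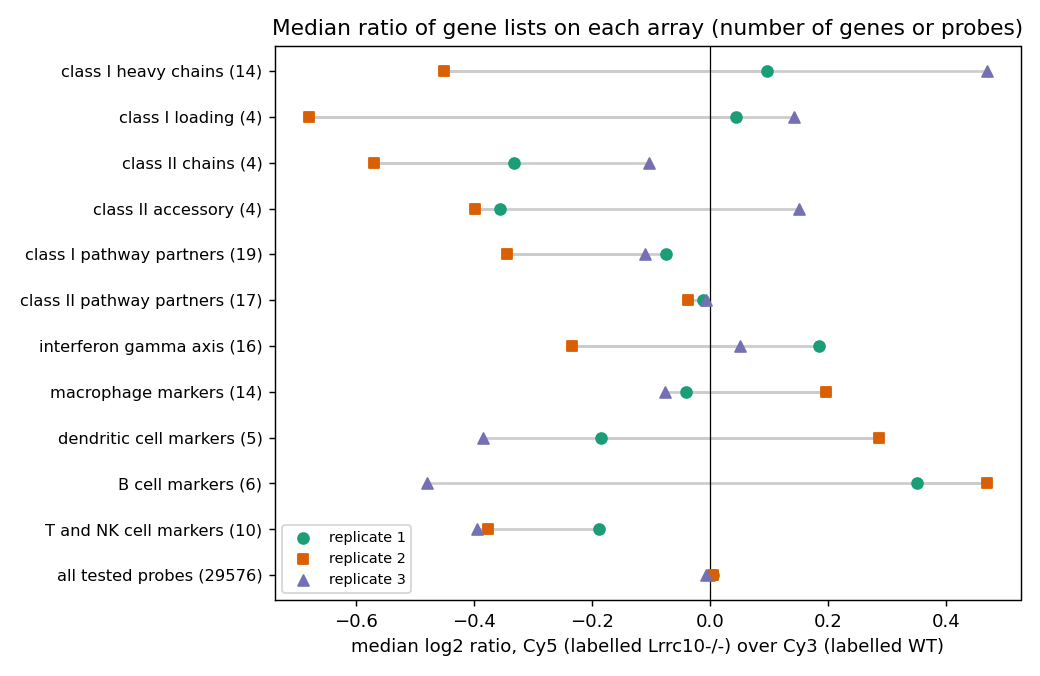
Median log2 ratio of Cy5 over Cy3 (x axis) of gene lists on each of 3 arrays, with the number of genes (probes in the last line) in brackets. Class I heavy chains run from −0.45 to 0.47, class II chains from −0.57 to −0.10, and all tested probes stay close to 0.

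Class I genes varied between arrays more in Cy3 than in Cy5. Signals of each channel were put on the log2 scale and centred on the median of the tested probes of that array, which compares arrays only as far as this centring allows. In Cy3, class I heavy chains lay −0.012, 0.42 and −0.38 from their own mean over arrays (medians on replicates 1, 2 and 3). In Cy5 they lay 0.099, −0.061 and −0.011 from it. The median SD of a class I heavy chain over the arrays was 0.46 in Cy3 and 0.14 in Cy5, where all tested probes had 0.38 and 0.22. For the loading genes it was 0.69 in Cy3 and 0.20 in Cy5. Class II genes were different, with 0.34 in Cy3 and 0.35 in Cy5, and their Cy5 levels lay −0.28, −0.14 and 0.39 from their mean. Unnormalized signals less local background gave 0.43 and 0.17 for class I heavy chains and 0.32 and 0.36 for class II genes. A larger SD in Cy3 than in Cy5 was found for 37 of 54 member probes and for 77.7% of all tested probes.

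**Figure D3:**
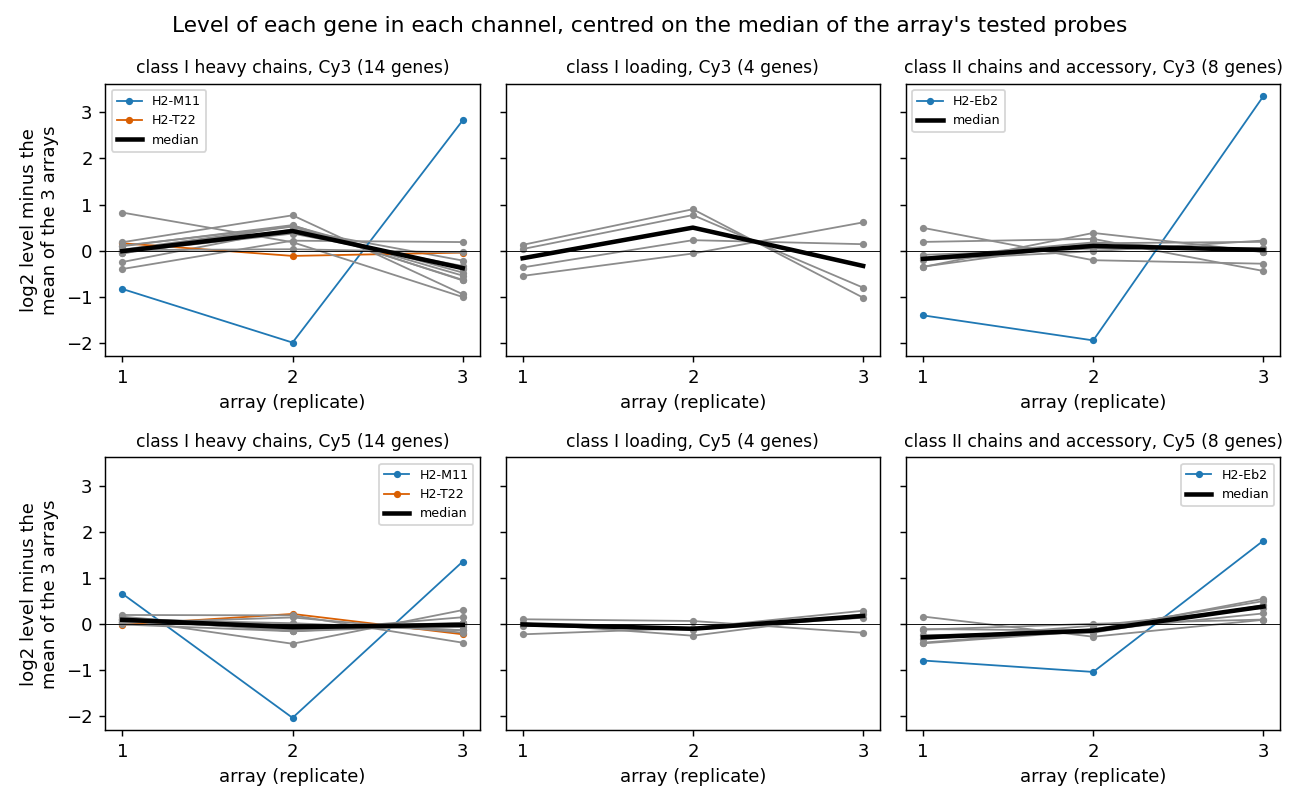
Log2 level of each gene less its own mean over the 3 arrays (y axis), by array (x axis), with Cy3 in the upper and Cy5 in the lower panels, after centring on the median of the tested probes of an array. Thin lines join the values of one probe and thick lines the medians, blue marks genes not well above background throughout, and class I heavy chains spread in Cy3 far more than in Cy5.

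Several probes of a gene allowed a check within an array. For the 12 member genes with more than 1 probe well above background everywhere, the median range over probes was 0.28, 0.28 and 0.36 on replicates 1, 2 and 3, against 0.31, 0.33 and 0.38 for 5757 genes of the array. *H2-T22*, *H2-Aa* and *H2-D1* had ranges of at most 0.15 on any array. *H2-K1* had ranges of 0.11 and 0.22 on replicates 1 and 2 and of 0.89 on replicate 3. On replicate 3 its brighter probes stood at −0.049 and −0.029 and its dimmer probes at 0.77 and 0.84, so the ratio of *H2-K1* on this array depends on the probe. *H2-Q10*, with 5 probes, had ranges of 0.55, 0.24 and 1.18. *H2-Ab1* on replicate 3 ran from 0.39 to 1.25, again with the dimmer probes higher. The probes of *B2m* differed by 1.13 on replicate 1 and by 0.97 on replicate 2. *Tapbp* differed by 1.05 on replicate 1, and its dimmer probe had the lowest mean of any tested member probe, −0.60 ± 0.69 (SD, n = 3).

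**Figure D4:**
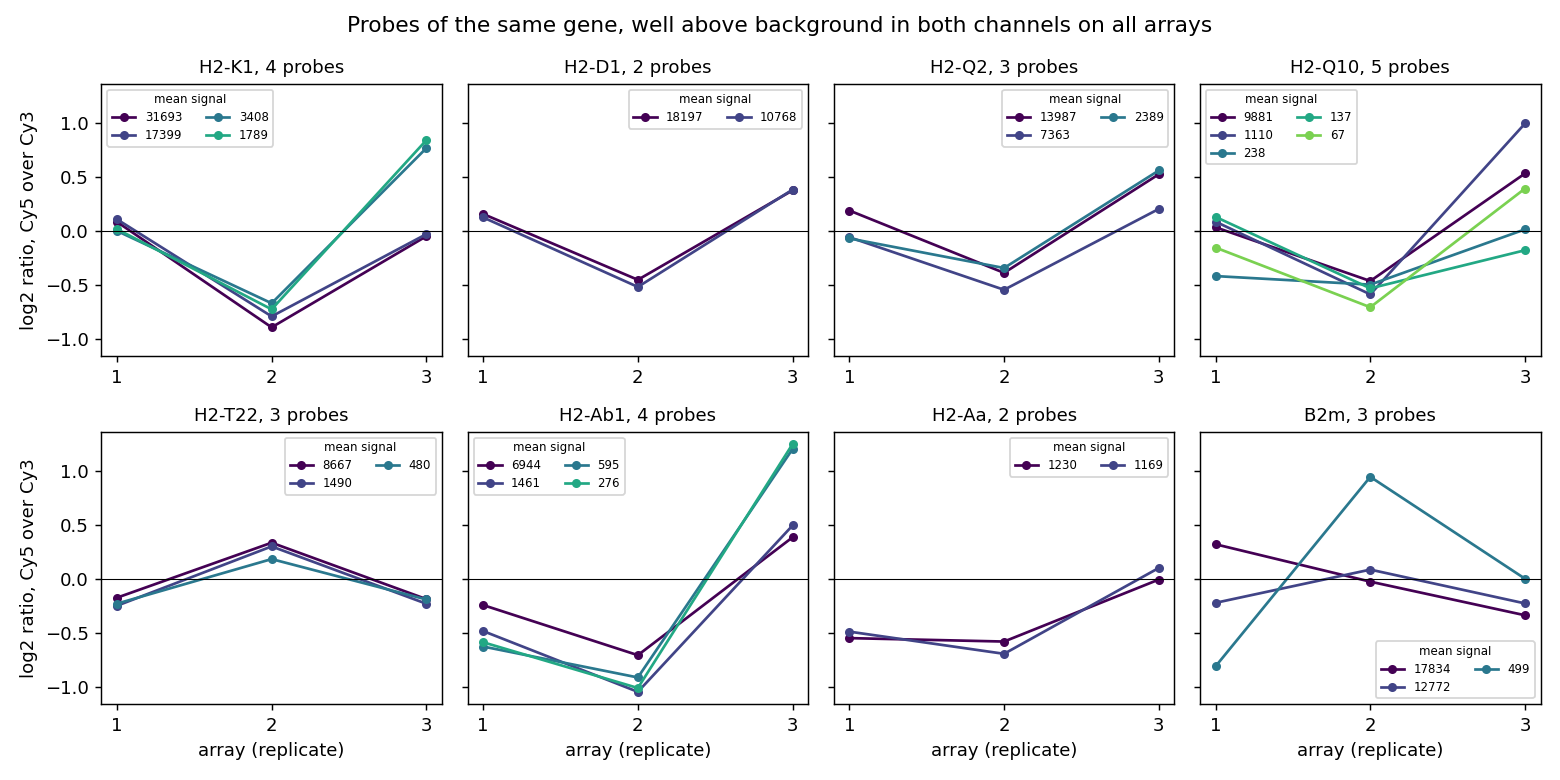
Log2 ratio of Cy5 over Cy3 (y axis) of single probes on each array (x axis) for 8 genes with several probes, each line joining the values of one probe and labelled with its mean signal. The 3 *H2-T22* probes run together and peak on replicate 2, whereas the *H2-K1* and *H2-Ab1* probes part on replicate 3.

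Ratios of members differed between bands of base composition, in a direction that changed with the array. On replicate 1 the medians of members were 0.11, −0.15 and −0.15 in probes with at most 40%, between 40% and 50% and above 50% G or C, against 0.037, 0.0058 and −0.072 for all tested probes. On replicate 3, 7 member probes with at most 40% G or C had a median of −0.18, 23 probes between 40% and 50% one of 0.19, and 24 probes above 50% one of 0.44. All tested probes in these bands stood at 0.013, −0.015 and −0.052. On replicate 2 the medians of members were −0.024, −0.45 and −0.53, against 0.078, −0.031 and −0.097. The part of base composition in the member ratios was not tested.

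The wider pathways were read from lists of genes outside the members. Of 20 class I pathway partners, 19 were on the array, all of them tested, and 0 passed the adjusted or the unadjusted threshold. Their median ratios were −0.074, −0.34 and −0.11. *Psmb9*, an immunoproteasome subunit encoded next to *Tap1*, gave 2255, 3149 and 2243 in Cy3 and 2066, 2557 and 2056 in Cy5, with ratios of −0.13, −0.30 and −0.13. Its Cy3 level did not show the swings of *Tap1*. *Psmb8*, on the other side of *Tap1*, gave ratios of 0.13, −0.060 and 0.17. Of the relatives of class I heavy chains, *Mr1*, *Cd1d1* and *Azgp1* were below 0 on all arrays with means of −0.26, −0.35 and −0.41. The others were mixed, with ratios of 0.20, 0.21 and −0.23 for *Hfe*, −0.21, −0.23 and 0.50 for *Fcgrt* and −0.38, −1.11 and 0.94 for *Cd1d2*, the last not well above background throughout.

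Of 18 class II pathway partners, 17 were tested and 0 passed either threshold, with median ratios of −0.011, −0.037 and −0.0060. *Ctss*, the cathepsin that trims the invariant chain, was above 0 on every array with ratios of 0.14, 0.14 and 0.13. *Rfx5*, a subunit of the factor that binds class II promoters, was below 0 on every array, at −0.15, −0.85 and −0.44. *Rfxank* (−0.39, −0.12 and 0.25) and *Rfxap* (0.29, −0.26 and 0.32) of the same list were mixed. Of the 17, 1 (*Ctss*) was above 0 on every array and 2 (*Rfx5* and *Ctsd*) below, against 10.0% and 11.0% of all tested probes. The interferon gamma list (16 of 16 tested) had medians of 0.18, −0.23 and 0.051, with 0 genes past the adjusted threshold and 1, *Socs1*, past the unadjusted one, at −0.63 ± 0.28 (SD, n = 3). *Igtp*, an interferon-induced GTPase, gave Cy3 signals of 5069.9, 22890.4 and 3719 and Cy5 signals of 6430.2, 7132 and 5749. It was brightest in Cy3 on replicate 2, the array on which class I Cy3 signals were highest, while *Irf1* stood at 0.19, −0.32 and −0.11 and *Cxcl10* at 0.36, −0.079 and 0.52.

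Markers of the cells that carry class II were read on the same arrays. All 14 macrophage markers found on the array were well above background, with summed signals of 111116 to 131372 in Cy3 and 126380 to 197036 in Cy5 and median ratios of −0.041, 0.20 and −0.076. Most of each sum came from a single saturated probe, of *Lyz2*, and the other 13 markers summed to 28549.5 to 38910 in Cy3 and 27045 to 44839 in Cy5. Of 8 dendritic cell markers 5 were tested, *Ccr7*, *Cd209a* and *Clec9a* being too dim, with sums of 2125 to 2938 in Cy3 and 1985 to 2449 in Cy5 and medians of −0.18, 0.29 and −0.38. Of 8 B cell markers 6 were tested, with sums of 1199 to 1671 in Cy3 and 1082 to 1749 in Cy5 and medians of 0.35, 0.47 and −0.48. *Cd79b* was brighter in Cy3 on all arrays, at −0.53 ± 0.093 (SD, n = 3), and *Cd79a*, not well above background throughout, in Cy5. Of 11 T and NK cell markers 10 were tested, with sums of 1620 to 4129 in Cy3 and 2349 to 2734 in Cy5 and medians of −0.19, −0.38 and −0.39. *Cd3d*, *Cd8a*, *Gzma* and *Nkg7* were brighter in Cy3 on all arrays, *Cd8a* without being well above background throughout. In contrast, *Cd3g*, the brightest of the list, stood at 1.14, 1.29 and −0.77 and *Cd3e*, *Cd8b1*, *Cd4*, *Lck* and *Klrb1c* were mixed. Of the 4 tested thymus markers, *Dntt* (0.78, 1.04 and −0.92) and *Ptcra* (0.66, 0.22 and −0.70) had the signs of *Cd3g* on each array. *Foxn1* (0.30, −0.12 and −1.43) and *Cd1d1* (−0.16, −0.69 and −0.21) did not, and *Aire*, *Rag1* and *Rag2* were too dim. At an unadjusted p under 0.05, 3 of the 10 T and NK cell markers (*Cd3d*, *Gzma* and *Nkg7*), 1 B cell marker (*Cd79b*) and 2 cardiomyocyte markers (*Myl2* and *Tnnt2*, both saturated) were brighter in Cy3, against 1.52% of all tested probes. The selection with the p of each array took 2, 1 and 2 markers of these lists in Cy3, against 0.511%. After adjustment, limma called 0 markers of any list. On replicate 2, where class II genes had a median of −0.47, macrophage, dendritic cell and B cell medians lay above 0. All 8 cardiomyocyte markers, 6 of them saturated on at least 1 array, and all 6 endothelial markers were well above background, with medians of 0.070, −0.48 and −0.21 and of 0.15, −0.57 and −0.25. The part of cell composition in the member ratios was not tested.

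The promoters of 4 members are shown as examples of both classes. The sequences below, from RefSeq (GRCm38.p6), run from 250 bases before the start of the gene to the base before it, 5′ to 3′ on the strand of the gene, for a class I gene lowest on replicate 2, for *H2-T22* and for the class II chains *H2-Aa* and *H2-Eb1*. Capitals mark CCAAT (or ATTGG on the other strand, the core of the Y box), GAANNGAAA (as in interferon response elements) and GGGGATTCC (as in NF-kappa B sites), each searched on both strands.
*H2-D1* (chr17:35262844-35263093, plus strand): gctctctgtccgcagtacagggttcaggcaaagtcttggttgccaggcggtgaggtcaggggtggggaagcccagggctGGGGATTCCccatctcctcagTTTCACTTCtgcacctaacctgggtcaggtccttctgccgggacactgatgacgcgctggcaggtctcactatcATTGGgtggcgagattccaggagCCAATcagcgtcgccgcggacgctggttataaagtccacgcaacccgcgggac
*H2-T22* (chr17:36042743-36042992, minus strand): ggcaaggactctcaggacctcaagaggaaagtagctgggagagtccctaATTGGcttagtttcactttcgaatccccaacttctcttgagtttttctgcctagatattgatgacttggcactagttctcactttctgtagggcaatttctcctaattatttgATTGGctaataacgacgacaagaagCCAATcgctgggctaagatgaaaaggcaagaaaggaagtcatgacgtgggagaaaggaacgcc
*H2-Aa* (chr17:34287824-34288073, minus strand): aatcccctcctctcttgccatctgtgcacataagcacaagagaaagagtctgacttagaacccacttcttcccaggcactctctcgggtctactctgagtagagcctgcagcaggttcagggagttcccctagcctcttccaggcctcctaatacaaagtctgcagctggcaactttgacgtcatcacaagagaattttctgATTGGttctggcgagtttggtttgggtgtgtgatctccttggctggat
*H2-Eb1* (chr17:34305617-34305866, plus strand): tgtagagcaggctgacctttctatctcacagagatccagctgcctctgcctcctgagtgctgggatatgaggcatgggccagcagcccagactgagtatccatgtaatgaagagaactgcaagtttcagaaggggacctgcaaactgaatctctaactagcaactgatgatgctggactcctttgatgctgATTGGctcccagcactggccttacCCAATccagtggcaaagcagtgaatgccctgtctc

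The *H2-D1* promoter held all 3 motifs, with CCAAT matches starting at −76 and −53 from the start of the gene, GAANNGAAA at −150 and GGGGATTCC at −171. *H2-T22* held 3 CCAAT matches, at −201, −88 and −63, and no match to the other motifs as searched. Its sequence does hold tttcactttc, which differs from GAANNGAAA read on the other strand by a wider gap between its parts. Other spacings were not searched for in any promoter. The lack of a GAANNGAAA match therefore does not show that *H2-T22* lacks an interferon response element. In *H2-Aa* a single CCAAT match began at −48, and in *H2-Eb1* matches began at −59 and −35. The table of RefSeq promoters used here held 22 promoters of 20 of the 30 tested member genes. In the same window of 250 bases, 20 of these promoters held CCAAT, 6 held GAANNGAAA and 4 held GGGGATTCC, where 33.9% (11120), 6.31% and 0.213% of 32851 promoters of the genome held them. *H2-K1* and *H2-Q7*, lowest on replicate 2 like *H2-D1*, also held all 3 motifs. *H2-T23*, *H2-Q2* and *H2-M10.2*, lowest there too, held CCAAT alone. *H2-M3*, whose brightest probe was highest on replicate 2, held CCAAT and GAANNGAAA. A link between motifs and ratios was not tested. A match is a run of letters and not evidence of binding.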

How the data were processed

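Total RNA of hearts was amplified, labelled and hybridized to Agilent whole mouse genome arrays. For each array the authors deposited a file of Agilent Feature Extraction, version 9.1.3.1. Its mean and background intensity columns are unnormalized, and its processed intensity columns, as deposited, are free of local background and spatial trends, with a linear and lowess normalization of the dyes inside each array. The deposited log10 ratio is that of processed Cy5 over Cy3, and the deposited p-value belongs to that ratio at one spot of one array. A second table of log10 ratios deposited by the authors equals those of the arrays apart from 1 value it lacks.

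Each array held 43379 gene spots, of which 28942 to 30269 were well above background in Cy3 and 30512 to 30810 in Cy5. Outlier spots (4 to 21 per array) were left out, spots of a probe were averaged and ratios were put on the log2 scale. Probes with a mean processed signal of at least 20 were tested with limma 3.58.1 in R 4.3.3 (lmFit and eBayes with an intensity trend, two-sided, Benjamini-Hochberg adjustment over 29576 probes), after a run on simulated data. Further summaries used Python 3.11.15 and pandas 2.3.3. Precision is limited by the small number of arrays. The brightest tested probe stood for a gene. All 3 arrays were used as deposited, and directions follow the dyes in the labels.

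The members, roles, lists and alternatives were chosen with earlier results of these data known. The rule named the classical class I genes, the loading genes, *Cd74*, *Ciita*, the class II genes, and any other member with the same sign on all arrays or called by a test. Other class I and H2- genes and the genes named from the pathway and marker lists were picked after their values were seen. *Irf1* stands in 2 lists, and *Cd1d1* in the class I pathway list and a thymus marker list (4 of 7 tested, median ratios 0.48, 0.049 and −0.81). Of 6 neutrophil markers 3 were tested (medians −1.05, 0.072 and −0.097). Alternatives were other background correction and dye normalization, other filters, each array left out, saturated probes left out, the second table, the methods' t-test, eBayes without trend, the selection by ratio alone, other probe rules and other bounds of the classes. Sequences of probes came from the array files and promoters from RefSeq.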

Additional observations from a re-analysis of the deposited data

How the results depend on the processing

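The count of member probes called by limma stayed at 0 under each alternative run, with the lowest adjusted p over these alternatives between 0.0733 and 1.00. At an unadjusted p under 0.05 the count of 0 moved to 7 with normexp and median centring (6 brighter in Cy5 and 1 in Cy3, against 26.9% and 3.69% of all tested probes), 3 in Cy3 with normexp and loess (2.70% of all), 2 in Cy3 without a signal filter (2.13% of all), 7 in Cy3 without replicate 3 (2.43% of all), 1 in Cy5 without replicate 1 (1.37% of all) and 1, of *H2-DMb1*, in Cy3 in the methods' t-test (2.20% of all, 0 after Benjamini-Hochberg adjustment). By ratio alone, without the array p, or with the unadjusted p of the methods' t-test in its place, 1 probe, of *H2-DMb1*, was at least 1.2-fold brighter in Cy3 on all arrays (1.95% and 1.13% of all). Leaving out an array gave 0 to 1 probes consistently brighter in Cy5 (1, of *H2-T24*, without replicate 1, against 2.25% of all) and 0 to 9 brighter in Cy3 (9 probes, of *H2-Aa*, *H2-Ab1*, *H2-DMb1*, *H2-Eb1* and *Tapbp*, without replicate 3, against 2.25% of all), where fewer arrays also make the rule easier to pass. The median over gene means of class I heavy chains ran from −0.12 (without replicate 3) to 0.38 (normexp and median centring), that of class II genes from −0.41 (without replicate 3) to −0.054 (normexp and median centring), and the difference of class II from class I from −0.44 (without replicate 2) to −0.10 (no signal filter), below 0 in all alternatives run and each within 1 SD of the value reported. Of the 15 named genes with a tested probe, *Tapbp*, *Ciita*, *H2-Aa*, *H2-Eb1* and *H2-DMb1* kept the sign of their mean under all alternatives run, and 5 of 148 values moved by over 1 SD, each with normexp and median centring. Taking 1 gene per set of probes with a shared run, leaving out *H2-Eb2*, and the t-test in the selection were added after the data were seen. The ratio within an array already pairs the channels, and with 1 group of arrays no further block was fitted. With 3 arrays on 1 slide and no dye swap, dye, channel and genotype cannot be told apart.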
